A study of Homo sapiens with 30 samples.

Results

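DNA damage repair genes were examined as a set of 37 genes, listed by symbol, whose products find, signal or mend broken and mispaired DNA. The list was given by name and used no measured value. Every one of the 37 symbols was found among the 23710 gene symbols with read counts and the 23616 with FPKM (a level scaled to transcript length and sequencing depth, summed over the transcripts of a gene). By role, 14 members act in homologous recombination, 7 are break sensors or checkpoint kinases, 6 belong to the Fanconi anaemia pathway, 5 act in non-homologous end joining, 2 in mismatch repair and 2 are poly(ADP-ribose) polymerases, and the last is the transcriptional kinase CDK12.

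RNA-seq covered 30 samples of prostate cancer cell lines, 10 conditions with 3 replicates each. V16D is a castration-resistant derivative of LNCaP whose androgen receptor lacks the F877L change, and MR49F is an enzalutamide-resistant line raised from LNCaP xenografts in castrated mice under long enzalutamide treatment, heterozygous for the F877L allele of the receptor and kept in 10 µM enzalutamide. MR49F cells were taken off the drug for 96 h before treatment. In full serum, V16D and MR49F cells received 0.1% DMSO as vehicle or 10 µM enzalutamide, a receptor antagonist, for 24 h. The study reports that enzalutamide can act as an agonist of the F877L receptor when androgens are depleted. MR49F cells were also held for 72 h in charcoal-stripped serum, which lacks most steroid hormones, and then given for 24 h the vehicle, 10 µM enzalutamide, 1 nM dihydrotestosterone (DHT, a natural androgen), 500 nM JQ-1 (an inhibitor of BET bromodomain proteins), or JQ-1 together with enzalutamide or with DHT. Both are single lines. The labels describe wells plated in triplicate, while the study's methods call the replicates biological and say that wells were combined in pairs for each, so that p-values measure the spread between these samples, which may be partly technical.

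A break across both DNA strands is bound by the MRE11-RAD50-NBN complex, which activates the kinase ATM, while stalled replication forks activate ATR and its effector CHEK1. Homologous recombination, led by BRCA1, BARD1, PALB2, BRCA2, XRCC2 and XRCC3, copies the lost sequence from the sister chromatid and therefore works mainly in S and G2 phase, whereas non-homologous end joining by the Ku proteins XRCC5 and XRCC6, PRKDC, XRCC4 and LIG4 religates ends through most of the cell cycle. Many recombination genes are transcribed in proliferating cells, and androgen signalling in prostate cancer has been linked to repair gene expression, which is why the receptor's agonist, antagonist and a BET inhibitor are of interest here. Reading the set across these conditions asks whether the genes move with androgen receptor activity and whether BET inhibition changes that.

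The depth on genes differed between the sera, with 13170504 to 21154962 counted reads a sample in full serum (72.97% to 77.81% of unique reads) and 982130 to 1813262 in charcoal-stripped serum (5.13% to 7.664%). Symbols of antisense genes stood out among those with more reads in the stripped vehicle samples (141 of 419, against 1751 of all 23710), and of genes with at least 100 full serum reads whose exons overlap a gene on the opposite strand, 6.83% kept over 50% of their full serum count, against 1.09% of genes without such overlap. Among members, FANCL kept 104% of its full serum count, FANCA 78.3% and XRCC3 33.9%, and all 3 overlap a gene on the other strand, while BARD1, with 22.1%, and PMS2, which came next, do not. The members' medians were 5.25% with and 4.24% without such an overlap. Whether the stripped serum counts were taken on the opposite strand was not tested, and FPKM were used as the main measure in stripped serum. Luminal prostate markers were present at 1 FPKM or more in 8 of 8 cases in every group, the basal markers KRT5, KRT14 and TP63 and the leukocyte markers PTPRC and CD3E averaged under 1 FPKM in every group, and 4 stromal markers summed to at most 5.353 FPKM in any sample.

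The lines were compared first under vehicle in full serum, where expression is given as CPM (counts scaled to the normalized library size). Of the 37 members, 28 were lower in MR49F than in V16D and 2 were higher at an adjusted p of at most 0.05 (edgeR quasi-likelihood test, Benjamini-Hochberg adjustment), while 31.8% of all 14013 genes tested were lower and 31.9% higher. The median log2 fold change was -0.39 over the members and -0.0049 over all genes. Lower members made up 11 of 14 recombination genes, 6 of 7 sensors and kinases, 5 of 6 Fanconi genes, 3 of 5 end joining genes, 1 of 2 mismatch repair genes and both polymerases.

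EXO1, an exonuclease that resects DNA ends, had 83.7, 80.6 and 85.8 CPM in V16D and 11.4, 10.2 and 10.7 CPM in MR49F. These groups lay far apart, with a log2 fold change of -2.96 ± 0.067 (SE) and an edgeR adjusted p of 1.38e-11. The mismatch recognition subunit MSH6 measured 162, 155 and 161 CPM in V16D against 59.6, 60.9 and 60.3 CPM in MR49F, again without overlap (log2 fold change -1.41 ± 0.047 (SE), edgeR adjusted p = 4.45e-10). BRCA2, a core factor of homologous recombination, reached 155, 152 and 150.4 CPM in V16D and 65.2, 70.6 and 70.2 CPM in MR49F. PALB2, the bridge between BRCA1 and BRCA2, gave 37.8, 33.4 and 36.0 CPM in V16D and 17.3, 16.2 and 16.8 CPM in MR49F. Their log2 fold changes were -1.15 ± 0.050 (SE) and -1.10 ± 0.073 (SE), and both genes were lower in each MR49F sample than in any V16D sample. A lack of overlap was a condition for naming these 4 genes, and for naming the largest changes in each later comparison of groups.

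The fall of BRCA1, CHEK1 and XRCC2 was smaller. BRCA1 had 171, 171 and 167 CPM in V16D and 132, 136 and 140.4 CPM in MR49F (log2 -0.32, edgeR adjusted p = 8.43e-05). CHEK1 had 89.4, 85.9 and 90.0 CPM in V16D and 64.6, 63.8 and 65.8 CPM in MR49F (log2 -0.45, edgeR adjusted p = 7.52e-06). In neither did the lines overlap. XRCC2, a recombination factor, gave 64.6, 62.1 and 58.8 CPM in V16D and 57.2, 50.4 and 49.7 CPM in MR49F, a log2 fold change of -0.24 (edgeR adjusted p = 0.00718). PRKDC, the catalytic subunit of the DNA-dependent protein kinase, gave 1057, 1059 and 1045 CPM in V16D and 836, 986 and 969.9 CPM in MR49F, and its log2 difference of -0.18 (edgeR adjusted p = 0.0176) was no longer called without V16D vehicle replicate 1, 2 or 3 (edgeR adjusted p = 0.0597, 0.0614 and 0.0514).

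Higher in MR49F were BARD1, the partner of BRCA1, with 63.8, 61.3 and 58.9 CPM in V16D and 79.2, 81.4 and 90.8 CPM in MR49F (log2 fold change 0.45 ± 0.063 (SE), edgeR adjusted p = 6.45e-05), and CDK12, which sustains transcription of long genes, with 201, 190.0 and 199.7 CPM in V16D and 272, 245 and 235 CPM in MR49F (log2 0.34 ± 0.058 (SE)). XRCC3, RBBP8, NBN, FANCL, XRCC6, LIG4 and PMS2 did not pass the test. Of 22 proliferation genes, 14 were lower in MR49F and 2 higher, with a median log2 fold change of -0.25 and a summed level of 1248 to 1268 FPKM in V16D against 974.6 to 1092 FPKM in MR49F. Their part in the difference between the lines was not tested.

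**Figure D1:**
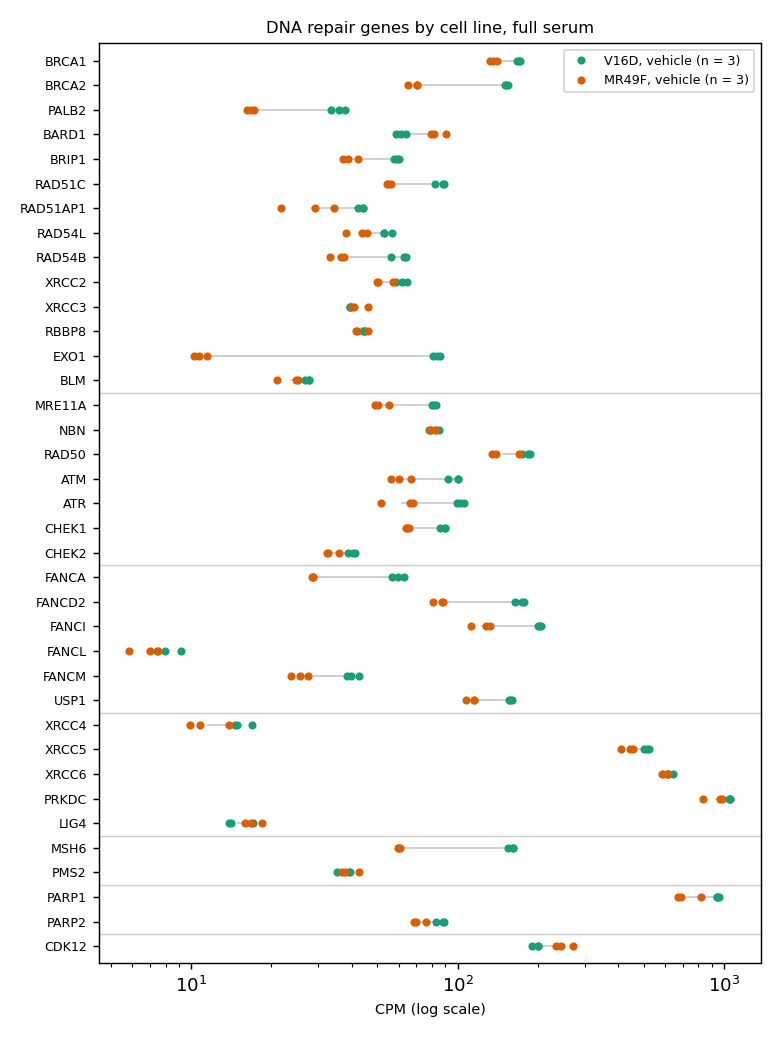
Expression of the 37 DNA damage repair genes, grouped by role, in vehicle-treated V16D and MR49F cells in full serum, in CPM on a log axis, with 1 point per replicate (3 per line). EXO1 and MSH6 show the widest gaps, with MR49F lower, and BARD1 and CDK12 are the members called higher in MR49F.

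Blocking the androgen receptor in V16D cells lowered 19 of 37 members and raised 2, against 19.3% of all 14079 genes tested called lower and 18.2% called higher. The changes were small, with a median log2 fold change of -0.0997 over the members and 0.0038 over all genes. Replicates were close in this comparison (biological coefficient of variation 1.83%). The prostate androgen targets KLK3 and TMPRSS2, which report receptor activity, fell by 1.89 and 2.48 on the log2 scale.

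Both risers were distinct from the rest in direction. BARD1 rose from 63.8, 61.3 and 58.9 CPM under vehicle to 110.1, 116 and 116 CPM under enzalutamide, a log2 fold change of 0.88 ± 0.038 (SE) (edgeR adjusted p = 2.13e-91). PMS2, the endonuclease subunit of the mismatch repair complex MutLα, rose from 35.3, 39.0 and 39.3 to 50.6, 49.6 and 49.5 CPM (log2 0.39 ± 0.049 (SE), edgeR adjusted p = 1.06e-13). For both genes the lowest treated sample exceeded the highest control. PMS2 has near-identical pseudogene copies, as do CHEK2 and FANCD2, so their values are uncertain wherever they are given.

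Among the members that fell, RAD54B, a motor protein of recombination, went from 62.7, 56.4 and 63.8 to 46.2, 50.6 and 48.3 CPM (log2 fold change -0.34 ± 0.045 (SE), edgeR adjusted p = 9.7e-13). PARP1, which marks single-strand breaks with poly(ADP-ribose), went from 959.6, 946 and 946 to 807, 786 and 764 CPM (log2 -0.28 ± 0.022 (SE), edgeR adjusted p = 1.09e-31). Neither gene overlapped between the treatments. PRKDC went from 1057, 1059 and 1045 to 960.1, 954 and 974 CPM (log2 -0.14, edgeR adjusted p = 9.69e-09), also without overlap. BRCA2 moved little, from 155, 152 and 150.4 to 145, 149 and 141 CPM (log2 -0.081, edgeR adjusted p = 0.0264), and was not called without enzalutamide replicate 1 or 3 or vehicle replicate 1 or 2 (edgeR adjusted p 0.0857, 0.0926, 0.112 and 0.0557).

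BRCA1 itself was not called, with 171, 171 and 167 CPM under vehicle and 166, 158 and 168 CPM under enzalutamide (edgeR adjusted p = 0.146), and the treatments overlapped. By role, 7 of 14 recombination genes, 3 of 7 sensors and kinases, 3 of 6 Fanconi genes, 3 of 5 end joining genes, MSH6 and both polymerases fell. Besides BRCA2, the calls of EXO1, NBN, ATR, USP1, XRCC6 and PARP2 were lost without some single samples. Proliferation genes moved too, with 16 of 22 lower and 2 higher (median log2 fold change -0.19), and their part in the result was not tested. The 21 calls became 13 (2 higher, 11 lower) in a fit of all 12 full serum samples, where 25.3% of all genes were called, and 11 (2 higher, 9 lower) by limma on FPKM, where 17.7% of genes were called higher and 12.7% lower. No sensor or kinase was among the 9 lower by limma, and PRKDC was the only end joining gene.

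The same treatment of MR49F cells called 5 members, 1 higher (3.86% of all 13927 genes tested) and 4 lower (4.62% of all genes). BARD1 again rose, from 79.2, 81.4 and 90.8 to 130.2, 127 and 126 CPM (log2 fold change 0.61 ± 0.056 (SE), edgeR adjusted p = 7.98e-05), and was the one member called under every left-out sample. RAD54B had 33.0, 37.5 and 36.4 CPM under vehicle and 30.0, 30.7 and 28.9 CPM under enzalutamide (log2 -0.26, edgeR adjusted p = 0.033). PARP2, a relative of PARP1, had 68.3, 76.3 and 69.5 and 60.9, 63.5 and 59.0 CPM (log2 -0.23, edgeR adjusted p = 0.0324). In both genes the treated samples were the lower ones.

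BRCA2 had 65.2, 70.6 and 70.2 CPM under vehicle and 60.1, 57.9 and 62.4 CPM under enzalutamide (log2 -0.19, edgeR adjusted p = 0.0497), and BRCA1 had 132, 136 and 140.4 and 119, 123 and 123 CPM (log2 -0.16, edgeR adjusted p = 0.0494). These 4 falls sat close to the threshold. Only BARD1 was called without enzalutamide replicate 1, 2 or 3 or without vehicle replicate 2, while 10 members were called without vehicle replicate 1, where 17.8% of all genes were called. Replicates were more spread than in V16D (coefficient of variation 5.25%), KLK3 gave a log2 fold change of -0.09 (edgeR adjusted p = 0.341) and TMPRSS2 of -0.19 (edgeR adjusted p = 0.0255), and 10 of 22 proliferation genes fell and 1 rose. By limma on FPKM, 1 member rose (2.39% of genes) and none fell (2.08% of genes, with 3 members lower at an unadjusted p under 0.05).

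**Figure D2:**
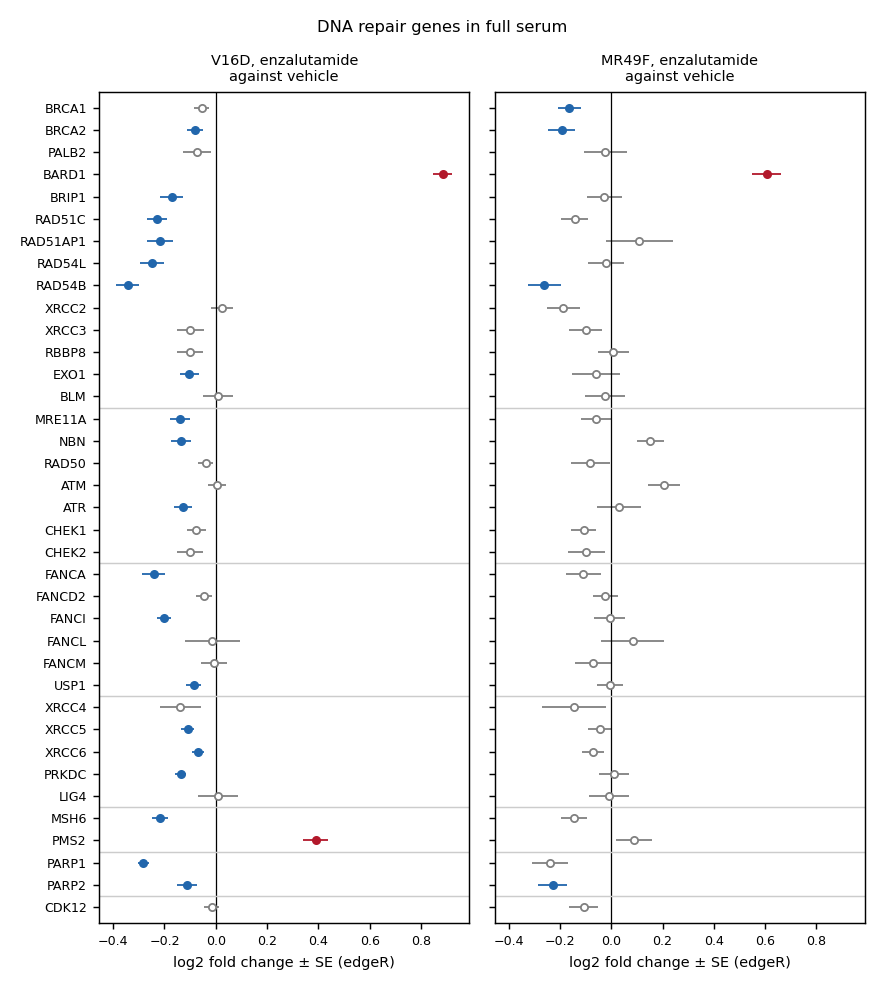
Log2 fold change with standard error (edgeR, 3 against 3 samples) of each member after enzalutamide in V16D and in MR49F cells in full serum. Filled red points rose and filled blue points fell at an adjusted p of at most 0.05, open grey points did not pass, and BARD1 is the member furthest to the right in both lines.

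A test of the difference between the lines' responses picked out 3 of 37 members, 1 higher and 2 lower in MR49F (4.19% and 2.76% of all 14471 genes). The interaction was -0.29 ± 0.069 (SE), adjusted p = 0.0129 for BARD1 (edgeR) and -0.31 ± 0.087 (SE), adjusted p = 0.0352 for PMS2 (edgeR). BARD1 rose less in MR49F, and PMS2, which rose in V16D, had a log2 fold change of 0.089 in MR49F that was not called (edgeR adjusted p = 0.464). For NBN, the scaffold of the break-sensing complex, it was 0.28 ± 0.071 (SE), adjusted p = 0.0189 (edgeR), with 78.0, 82.9 and 85.0 CPM going to 76.3, 70.8 and 77.9 CPM in V16D and 79.0, 79.3 and 82.1 going to 92.7, 83.7 and 91.3 CPM in MR49F. For the other 34 members a difference between the lines was not shown. These calls were fragile. One call was left without MR49F enzalutamide replicate 1 or 3, V16D enzalutamide replicate 2 or V16D vehicle replicate 2 or 3, and 8 were made without MR49F vehicle replicate 3, where 10.8% of all genes were called.

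Vehicle-treated MR49F cells had lower levels of most members in charcoal-stripped than in full serum. In FPKM, all 3 stripped samples lay below all 3 full serum samples for 32 of 37 members and above them for 3, against 40.7% and 36.5% of 12665 genes. The median log2 difference was -0.94 over the members, -0.036 over all genes and -2.03 over 22 proliferation genes, of which 22 were lower. The study describes the RNA-seq of the sera separately, and whether they were run together is not stated. Their counts differed greatly, so serum and any difference between experiments cannot be told apart and no test is given.

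By role, the median log2 difference was -2.00 over the 14 recombination genes (from -2.59 to 1.66), -1.12 over the 6 Fanconi genes, -0.56 over the 5 end joining genes and -0.48 over the 7 sensors and kinases. EXO1 averaged 0.305 FPKM in stripped and 2.34 FPKM in full serum, BRCA1 2.76 and 15.3 FPKM, BLM (a helicase that unwinds recombination intermediates) 0.664 and 3.80 FPKM, and the checkpoint kinase CHEK1 4.55 and 15.6 FPKM. Smaller differences were those of XRCC5, at 66.0 and 94.7 FPKM, and PRKDC, at 33.1 and 48.9 FPKM. The 3 members higher in stripped serum were BARD1 (76.3 against 24.2 FPKM), PMS2 (28.4 against 14.1 FPKM) and the kinase ATM (5.54 against 3.44 FPKM). FANCL and LIG4 overlapped between the sera. A pair of neuroendocrine markers with signal, ENO2 and SYP, together with CHGA (under 1 FPKM), summed to 28.08 to 30.26 FPKM in stripped and 6.507 to 8.208 FPKM in full serum.

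**Figure D3:**
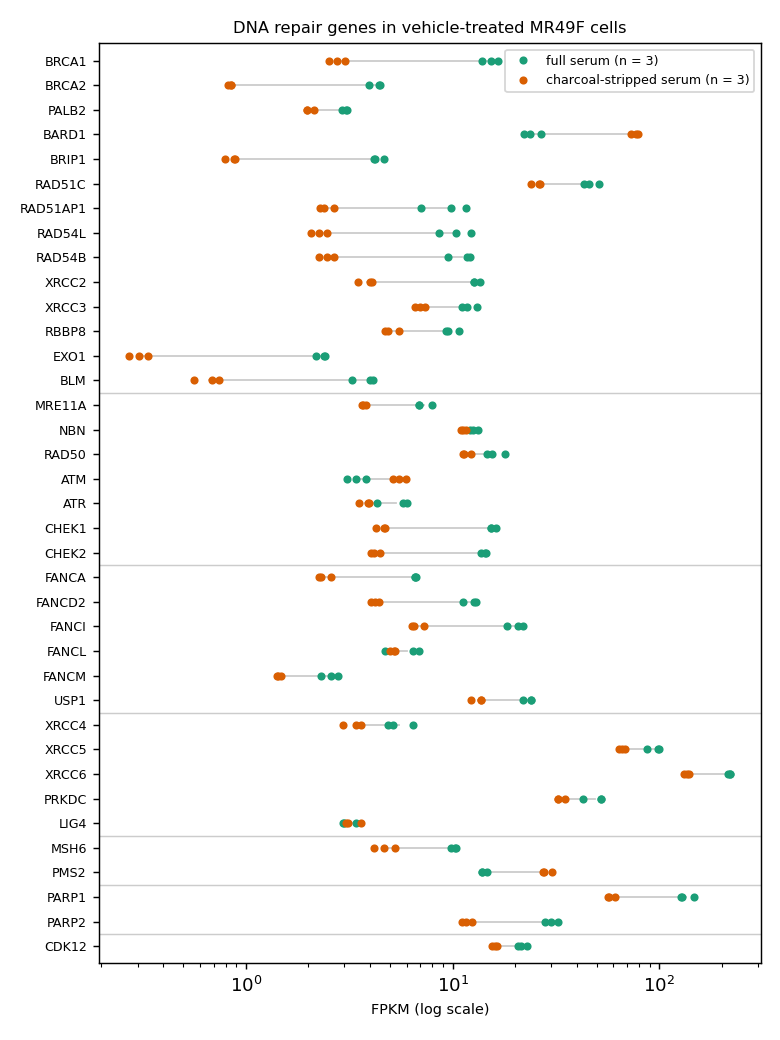
FPKM of each member, on a log axis, in vehicle-treated MR49F cells in full and in charcoal-stripped serum, with 1 point per replicate (3 per serum). Most members sit lower in stripped serum, and BARD1, PMS2 and ATM sit higher.

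From that lower level, 1 nM DHT raised most members. Of 37 members tested by limma on log2(FPKM + 0.1), 28 rose and 3 fell, while 28.9% of all 12180 genes tested rose and 43.1% fell. The median log2 fold change was 0.42 over the members. BRCA2, BRIP1, EXO1 and BLM passed the filter of 1 FPKM in 3 samples through 1 group only, and without them 24 rose and 3 fell of 33, with a median of 0.36. All fold changes in stripped serum are on the log2(FPKM + 0.1) scale, which understates those of low genes.

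Enzalutamide, at 10 µM in the same serum, called 25 members higher and 1 lower of 36 tested (EXO1 did not pass the filter), against 19.2% of all 12178 genes in each direction. The median was 0.34, and without BRCA2, BRIP1 and BLM, which passed the filter through 1 group, 22 of 33 rose and 1 fell. The comparisons with DHT and with enzalutamide share their vehicle samples, so their values are set side by side and their likeness is not tested. KLK3 had log2 fold changes of 2.15 with DHT and 1.5 with enzalutamide in these F877L cells.

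In homologous recombination, 9 of the 10 members that did not depend on 1 group to pass the filter rose after DHT, and 9 of 10 after enzalutamide. RAD54L, a DNA translocase of the SWI/SNF family, measured 2.08, 2.25 and 2.48 FPKM under vehicle, 5.79, 5.85 and 5.70 FPKM with enzalutamide and 7.81, 7.20 and 7.16 FPKM with DHT. All treated samples exceeded all vehicle samples. The log2 fold change was 1.66 ± 0.078 (SE) with DHT (limma adjusted p = 3.44e-07) and 1.31 ± 0.076 (SE) with enzalutamide (limma adjusted p = 5.15e-06). BRCA1 measured 2.52, 2.77 and 3.01 FPKM under vehicle, 6.51, 6.08 and 6.05 FPKM with enzalutamide and 7.59, 6.93 and 6.98 FPKM with DHT. Its level was thus 2.54-fold higher with DHT and 2.21-fold higher with enzalutamide, with log2 fold changes of 1.35 ± 0.077 (SE) and 1.14 ± 0.077 (SE) (limma adjusted p = 1.14e-06 and 1.13e-05), and no sample overlapped the vehicle.

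EXO1 was scarce, at 0.335, 0.274 and 0.304 FPKM under vehicle, 1.06, 0.961 and 1.22 FPKM with enzalutamide and 1.18, 1.41 and 1.18 FPKM with DHT. BLM measured 0.744, 0.560 and 0.687 FPKM under vehicle, 1.93, 1.52 and 1.86 FPKM with enzalutamide and 2.21, 2.11 and 1.79 FPKM with DHT. BRCA2 measured 0.845, 0.852 and 0.822 FPKM under vehicle, 1.65, 1.84 and 1.86 FPKM with enzalutamide and 2.38, 2.09 and 2.03 FPKM with DHT. All 3 genes read higher in every treated sample, and since they passed the filter through treated samples alone or not at all, these levels are given without a test. RAD54B measured 2.47, 2.69 and 2.27 FPKM under vehicle, 5.22, 5.44 and 5.22 FPKM with enzalutamide and 7.50, 6.58 and 5.75 FPKM with DHT, again without overlap. XRCC2 rose from 3.98, 3.48 and 4.10 FPKM to 6.15, 6.26 and 6.47 FPKM with enzalutamide (log2 0.70) and 7.11, 6.56 and 6.66 FPKM with DHT (log2 0.80). Of the smaller rises after DHT, RBBP8, which starts end resection, gave 0.46, XRCC3 0.45, PALB2 0.33 and RAD51C 0.27, all as log2 fold changes. The PALB2 call with enzalutamide was lost without enzalutamide replicate 3 or vehicle replicate 1 or 2 (limma adjusted p = 0.0593, 0.0628 and 0.0586).

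In the sensor and checkpoint group, 5 of 7 rose after each agent. CHEK1, the kinase that halts the cycle at stalled forks, measured 4.72, 4.28 and 4.65 FPKM under vehicle, 8.13, 7.55 and 7.79 FPKM with enzalutamide (log2 0.77, limma adjusted p = 2.53e-05) and 8.84, 7.94 and 8.04 FPKM with DHT (log2 0.85, limma adjusted p = 5.91e-06). Treated and vehicle samples did not overlap. CHEK2 rose by 0.80 with DHT on the log2 scale, ATR by 0.41, MRE11A by 0.36 and RAD50 by 0.15. The RAD50 call was lost without DHT replicate 2 (limma adjusted p = 0.146) and without vehicle replicate 1 or 2 (limma adjusted p = 0.113 and 0.105). The ATR call with enzalutamide was lost without vehicle replicate 2 (limma adjusted p = 0.0513). NBN was called with enzalutamide (log2 0.35, limma adjusted p = 0.00107) and not with DHT (log2 0.079, limma adjusted p = 0.157). ATM fell with DHT, from 5.99, 5.13 and 5.50 to 4.08, 3.66 and 3.43 FPKM (log2 -0.56 ± 0.084 (SE), limma adjusted p = 0.00035).

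Of the Fanconi genes, which unhook DNA crosslinks, FANCA, FANCD2, FANCI and the deubiquitinase USP1 rose after both agents, and FANCL and FANCM passed with neither. FANCI, which is clamped on DNA with FANCD2, had the largest log2 fold changes of this group, 0.84 with DHT and 0.71 with enzalutamide. The USP1 call with enzalutamide was lost without enzalutamide replicate 1 or 3 or vehicle replicate 1 (limma adjusted p = 0.0595, 0.0914 and 0.11). In end joining, XRCC5, XRCC6 and PRKDC rose with DHT and PRKDC alone with enzalutamide. PRKDC measured 34.8, 32.3 and 32.2 FPKM under vehicle, 37.4, 40.5 and 39.5 FPKM with enzalutamide (log2 0.24, limma adjusted p = 0.00522) and 43.9, 39.2 and 35.8 FPKM with DHT (log2 0.25, limma adjusted p = 0.0121). In each comparison the lowest treated sample was above the highest vehicle sample. XRCC4 and LIG4, partners in the ligation step, and CDK12 were not called with either agent. PARP1 and PARP2 rose by 0.35 and 0.60 with DHT and by 0.22 and 0.45 with enzalutamide, on the log2 scale. The rise of MSH6 with enzalutamide was not called without enzalutamide replicate 3 or vehicle replicate 1 (limma adjusted p = 0.0673 and 0.0675).

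BARD1 and PMS2 took the opposite course. BARD1 was the most abundant recombination gene under vehicle, at 77.5, 73.0 and 78.4 FPKM, and dropped to 26.6, 25.4 and 24.5 FPKM with DHT (log2 -1.58 ± 0.046 (SE), limma adjusted p = 2.19e-08). With enzalutamide it measured 66.8, 70.1 and 73.5 FPKM, which was not past the threshold (limma adjusted p = 0.0846). PMS2 fell from 27.3, 27.7 and 30.2 FPKM to 20.1, 20.9 and 20.7 FPKM with enzalutamide (log2 -0.46, limma adjusted p = 0.00016) and to 13.1, 13.2 and 13.7 FPKM with DHT (log2 -1.09, limma adjusted p = 2.89e-07). No PMS2 sample of either treatment reached the vehicle range.

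Proliferation genes rose in the same samples, with 19 of 22 higher and 1 lower after DHT (median log2 fold change 1.09) and 21 of 22 higher after enzalutamide (median 0.80). Their summed level was 266.7 to 286.5 FPKM under vehicle, 438.8 to 463.6 FPKM with enzalutamide and 527.7 to 548.6 FPKM with DHT. The part of proliferation in the rise of the repair genes was not tested. The counts, which may be of the opposite strand (not tested), gave fewer calls: 16 members rose and 4 fell after DHT by edgeR (19.4% and 18.1% of genes), and 1 rose and 1 fell after enzalutamide (4.38% and 2.87%), with 9 higher at an unadjusted p under 0.05. On these counts CHEK1, FANCA and XRCC3 had log2 fold changes below 0 with both agents, against the direction of their FPKM.

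**Figure D4:**
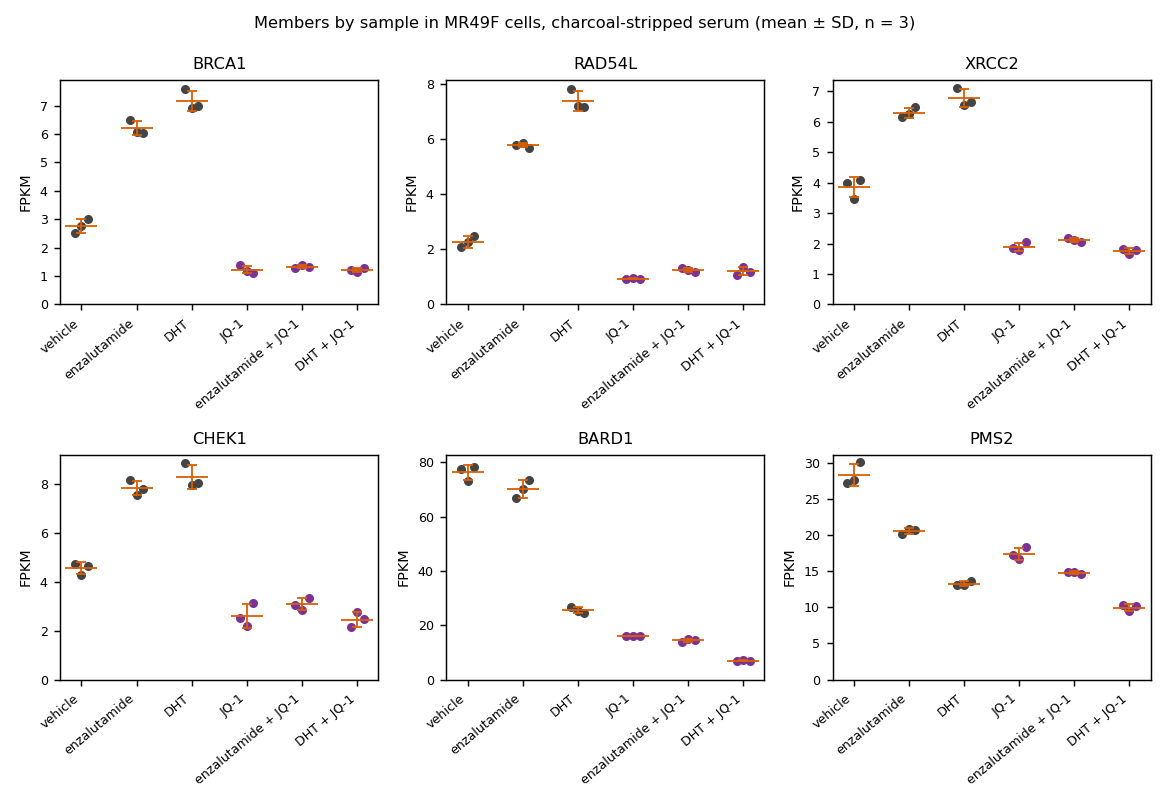
FPKM of BRCA1, RAD54L, XRCC2, CHEK1, BARD1 and PMS2 in the 6 groups of MR49F cells in charcoal-stripped serum, with 1 point per replicate and bars for the mean ± SD (n = 3). BRCA1, RAD54L, XRCC2 and CHEK1 are highest with DHT and lowest in the groups given JQ-1, while BARD1 and PMS2 are highest under vehicle and lowest with DHT and JQ-1 together.

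Set against enzalutamide directly, DHT gave higher levels of 9 members and lower levels of 4 of 37 (20.8% and 36.4% of all 12029 genes). MSH6 was the furthest of the 9, at 5.60, 5.71 and 6.69 FPKM with enzalutamide and 8.29, 8.09 and 7.98 FPKM with DHT (log2 0.44 ± 0.073 (SE), limma adjusted p = 0.000935). The others were RAD54L (log2 0.35), RAD54B (log2 0.31), XRCC5 (log2 0.29), BRCA2 (log2 0.26), BRCA1 (log2 0.20), XRCC6 (log2 0.20), CHEK2 (log2 0.20) and PARP1 (log2 0.12), as log2 fold changes. The calls of BRCA1, BRCA2, CHEK2 and PARP1 were each lost without 1 or another sample. Without DHT replicate 1, for instance, BRCA1 had a limma adjusted p of 0.0638 and BRCA2 of 0.135.

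Lower with DHT than with enzalutamide were BARD1 (log2 -1.46, limma adjusted p = 7.15e-08), PMS2 (log2 -0.63), ATM (log2 -0.57) and NBN (log2 -0.27). ATM measured 5.14, 5.61 and 5.95 FPKM with enzalutamide and 4.08, 3.66 and 3.43 FPKM with DHT, without overlap. When samples were centred on their medians, 16 members were higher and 4 lower, and the share of all calls that were higher moved from 36.44% to 51.7%.

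JQ-1 alone lowered 19 of the 33 members tested and raised 5 (42.6% and 32.4% of all 12203 genes). BRCA2, BRIP1, EXO1 and BLM did not pass the filter, and without PALB2 and RAD54L, which passed it through 1 group, 17 of 31 fell and 5 rose. BARD1 fell furthest, from 77.5, 73.0 and 78.4 FPKM to 16.1, 15.9 and 16.1 FPKM (log2 -2.24 ± 0.037 (SE), limma adjusted p = 2.87e-09). RAD54L read 0.929, 0.949 and 0.907 FPKM, given without a test since it passed the filter through vehicle alone. XRCC4 went from 3.43, 2.95 and 3.62 to 1.54, 1.11 and 1.59 FPKM (log2 -1.19 ± 0.14 (SE), limma adjusted p = 8.7e-05). In all 3 genes every treated sample lay under every vehicle sample.

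BRCA1 fell to 1.37, 1.19 and 1.11 FPKM (log2 -1.11, limma adjusted p = 2.39e-05), XRCC2 to 1.85, 1.79 and 2.04 FPKM (log2 -0.99) and CHEK1 to 2.52, 2.17 and 3.13 FPKM (log2 -0.79). These levels did not overlap with vehicle. The risers were FANCM (log2 0.26), RAD54B (log2 0.24), MSH6 (log2 0.23), PARP1 (log2 0.22) and RAD51C (log2 0.21), small changes that for FANCM, RAD54B and MSH6 were lost without JQ-1 replicate 1 (limma adjusted p = 0.148, 0.0514 and 0.118) and without some of the other samples. Of 22 proliferation genes, 14 fell and 6 rose (median -0.51), and their summed level was 246.4 to 251.1 FPKM against 266.7 to 286.5 FPKM under vehicle. A part of proliferation in these changes was not tested. On the counts edgeR called 9 members lower and 3 higher (23.9% and 22.8% of genes), and ATM and MRE11A had log2 fold changes above 0.

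Added to DHT, JQ-1 lowered 31 of 37 members and raised none (43.3% and 35.3% of all 11856 genes). The median log2 fold change over the members was -0.86. By limma no member rose at an unadjusted p under 0.05 either, while edgeR (26.7% of genes higher) and DESeq2 (12.3%) on the counts each called 2 higher. Without the 6 members that passed the filter through 1 group, 25 of 31 fell. RAD51C, NBN, ATM, FANCM, LIG4 and CDK12 did not pass the test.

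RAD54L fell to 1.09, 1.36 and 1.17 FPKM (log2 -2.53 ± 0.090 (SE), limma adjusted p = 1.16e-07) and BRCA1 to 1.22, 1.14 and 1.28 FPKM (log2 -2.47 ± 0.073 (SE), limma adjusted p = 5.09e-08). Both levels were below those under vehicle. EXO1, which passed the filter through DHT alone, read 0.241, 0.277 and 0.180 FPKM. RAD51AP1, a DNA-binding cofactor of recombination, went from 5.51, 5.17 and 4.66 to 1.20, 1.16 and 1.20 FPKM (log2 -2.01, limma adjusted p = 1.95e-07). XRCC2 fell to 1.82, 1.65 and 1.78 FPKM (log2 -1.90) and CHEK1 to 2.13, 2.74 and 2.46 FPKM (log2 -1.73). None of these 6 genes overlapped between DHT with and without JQ-1, which was a condition for naming RAD54L, BRCA1, EXO1 and RAD51AP1. BRCA2, which passed in the same way, read 0.762, 0.846 and 0.799 FPKM, and PRKDC fell to 32.3, 29.4 and 28.6 FPKM (log2 -0.39). By role, and without members that passed through 1 group, 8 of 9 recombination genes, 5 of 7 sensors and kinases, 5 of 6 Fanconi genes, 3 of 4 end joining genes, both mismatch repair genes and both polymerases fell.

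BARD1, already low with DHT, fell further to 6.85, 7.12 and 6.83 FPKM (log2 -1.86), and PMS2 fell to 10.3, 9.48 and 10.2 FPKM (log2 -0.41). Of the proliferation genes, 18 of 22 fell and 1 rose (median -1.46), with a summed level of 262.0 to 273.4 FPKM. Their part in the fall of the members was not tested. On the counts, DESeq2 called 17 members lower (13.3% of genes), and FANCI and XRCC3 had log2 fold changes above 0.

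Added to enzalutamide, JQ-1 lowered 28 of 36 members tested and raised none (44.4% and 31.1% of all 12148 genes), with none rising at an unadjusted p under 0.05 by limma and 1 called higher on the counts by edgeR (22.0% of genes) and by DESeq2 (9.05%). The median log2 fold change was -0.57, and 23 of 31 fell without the 5 members that passed the filter through 1 group. BARD1 went from 66.8, 70.1 and 73.5 to 13.8, 14.9 and 14.6 FPKM (log2 -2.27), BRCA1 to 1.29, 1.39 and 1.33 FPKM (log2 -2.14, limma adjusted p = 5.6e-08) and RAD54L to 1.32, 1.26 and 1.17 FPKM (log2 -2.12, limma adjusted p = 7.03e-08). RAD51AP1, which needed the samples without JQ-1 to pass the filter, read 4.74, 4.27 and 4.77 and 0.988, 1.37 and 1.18 FPKM. In these 4 genes no sample with JQ-1 reached the range without it, which was a condition for naming them.

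XRCC2 fell to 2.19, 2.11 and 2.05 FPKM (log2 -1.53), CHEK1 to 3.04, 2.83 and 3.32 FPKM (log2 -1.33) and PRKDC to 30.9, 30.9 and 28.6 FPKM (log2 -0.38). BRCA2, which also needed the samples without JQ-1 to pass the filter, read 1.16, 0.983 and 0.966 FPKM. Of the recombination genes that did not depend on 1 group to pass, 9 of 9 fell. Proliferation genes gave 18 of 22 lower and 2 higher (median -1.20), and their summed level was 260.5 to 264.8 FPKM. Whether they account for any of the fall was not tested. DESeq2 on the counts called 9 members lower (9.76% of genes), and CHEK1, FANCI, MSH6 and XRCC3 had log2 fold changes above 0 on the counts.

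**Figure D5:**
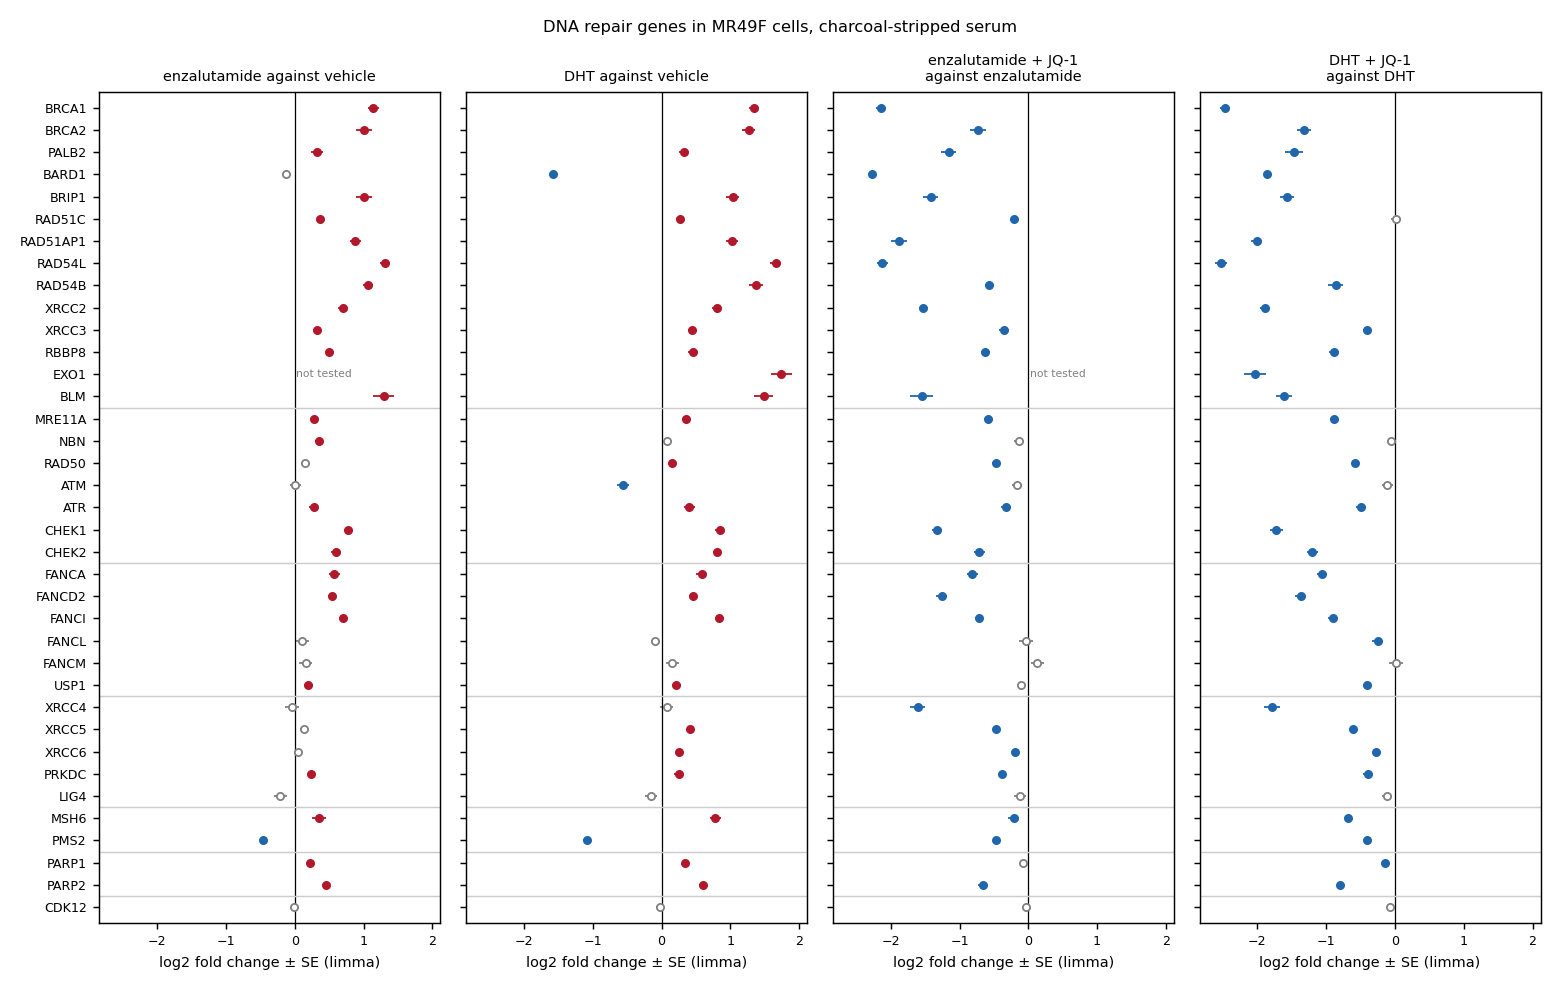
Log2 fold change with standard error (limma on log2(FPKM + 0.1), 3 against 3 samples) of each member in MR49F cells in charcoal-stripped serum, for enzalutamide and DHT against vehicle and for JQ-1 added to each. Filled red points rose, filled blue points fell and open grey points did not pass, and most recombination genes lie to the right in the first pair of panels and to the left in the second.

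With JQ-1 present in both arms, DHT changed far fewer members. It raised 3 of 33 tested, RAD54L (log2 0.34), RAD54B (log2 0.28) and NBN (log2 0.12), and lowered 8, BARD1 (log2 -1.20, limma adjusted p = 9.86e-08), PMS2 (log2 -0.80), XRCC4 (log2 -0.52), ATM (log2 -0.30), FANCL (log2 -0.28), MRE11A (log2 -0.20), CDK12 (log2 -0.18) and USP1 (log2 -0.28), against 17.1% and 35.9% of all 11709 genes. BRCA1 gave -0.012 ± 0.11 (SE). The 11 calls became 6 without DHT with JQ-1 replicate 2, or without JQ-1 replicate 1 or 3, and 7 without DHT with JQ-1 replicate 3. The NBN call was lost whichever of the 6 samples was left out (limma adjusted p 0.0527 to 0.0736). Of the other calls, the rises of RAD54L and RAD54B and the falls of XRCC4, MRE11A and FANCL were lost without some. PALB2, RAD54L and XRCC4 passed the filter through 1 group, and without them 2 of 30 rose and 7 fell. KLK3 had a log2 fold change of 4.51 at reduced levels. KLK3 and TMPRSS2 summed to 14.72 to 15.63 FPKM with JQ-1 and 204.8 to 211.8 FPKM with DHT and JQ-1. Their sum without JQ-1 was 298.9 to 311.9 FPKM under vehicle and 1380 to 1503 FPKM with DHT.

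Enzalutamide with JQ-1 in both arms called NBN higher (log2 0.30) and PMS2 (log2 -0.23) and BARD1 (log2 -0.15) lower of 33 tested, or of 29 without those that passed the filter through 1 group (6.34% and 9.5% of all 11747 genes). NBN measured 10.5, 10.6 and 10.5 FPKM with JQ-1 and 14.0, 13.4 and 11.8 FPKM with enzalutamide and JQ-1, without overlap. BARD1 measured 16.1, 15.9 and 16.1 and 13.8, 14.9 and 14.6 FPKM, and its call was lost without any of 5 of the 6 samples, for example without JQ-1 replicate 1 (limma adjusted p = 0.107). The count became 6 in a fit of all stripped serum groups, where 17.1% of all genes were called. No member was called on the counts by edgeR (4.5% of genes called, with 1 member higher and 2 lower at an unadjusted p under 0.05) or by DESeq2 (1.12% of genes, with 0 and 0).

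The interaction terms tested those differences. For DHT and JQ-1, 28 of 37 members had a lower response to DHT under JQ-1 and 2 a higher one (22.5% and 24.6% of all 12469 genes), with a median of -0.55. Without BRCA2, BRIP1, EXO1 and BLM, which passed the filter through 1 group, 24 of 33 were lower and 2 higher. BRCA1 gave -1.36 ± 0.13 (SE) (limma adjusted p = 5.64e-06) and RAD54L -1.32, on the log2 scale. The 2 upward terms were those of BARD1 (log2 0.38) and PMS2 (log2 0.29), whose fall with DHT was smaller under JQ-1. For enzalutamide and JQ-1, 21 of 36 were lower and 1, PMS2 (log2 0.23), was higher (11.1% and 7.28% of all 12454 genes), or 18 and 1 of 33 without BRCA2, BRIP1 and BLM, with BRCA1 at -1.03 and RAD54L at -0.92. The enzalutamide terms of PMS2, MRE11A, CHEK1, FANCD2, XRCC5 and MSH6 were each lost without some single samples. With DHT the same held for XRCC4 and CDK12. Proliferation genes had lower terms in 20 of 22 cases with DHT and 17 of 22 with enzalutamide, and their part was not tested. On the counts, 6 members had a lower term with DHT by edgeR (12.3% of genes called in either direction) and 3 by DESeq2 (4.01%). With enzalutamide no member's term passed by edgeR (0.895% of genes, 4 members lower at an unadjusted p under 0.05) or DESeq2 (0.305% of genes, 3 members lower).

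The response of MR49F cells to enzalutamide also differed between the sera. A term for the difference was higher in stripped serum for 21 of 37 members and lower for 2 (15.0% and 18.8% of all 12981 genes). EXO1 had 1.57, BLM 1.26, BRCA1 1.26 ± 0.11 (SE) (limma adjusted p = 1.08e-05) and CHEK1 0.84, while BARD1 had -0.77 and PMS2 -0.57, on the log2 scale. In full serum these BRCA1 samples read 13.8, 15.3 and 16.7 FPKM under vehicle and 13.6, 14.2 and 14.5 FPKM with enzalutamide. Proliferation genes had 19 of 22 terms higher. The serum and any difference between experiments cannot be told apart here, and the part of proliferation was not tested.

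Levels over the 6 stripped serum groups summarise the set. By group mean, 26 of 37 members were highest with DHT, 6 with enzalutamide, 3 under vehicle (BARD1, LIG4 and PMS2), CDK12 with JQ-1 and FANCM with enzalutamide and JQ-1. The lowest mean fell in DHT with JQ-1 for 20 members, in JQ-1 for 7, in enzalutamide with JQ-1 for 5 and under vehicle for 5 (RAD51C, RAD54B, FANCM, MSH6 and PARP1). Neighbouring group means were often within the spread of the replicates, as for BRCA1 with JQ-1 (1.37, 1.19 and 1.11 FPKM) and with DHT and JQ-1 (1.22, 1.14 and 1.28 FPKM).

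RefSeq promoter windows (GRCh38.p14, from 250 bases before to 50 after a start site) were held for 32 of 37 members, 49 windows in all. They were searched on both strands for the E2F letters TTTGGCGC and TTTCCCGC, the CHR letters TTTGAA and TTCGAA, and the full palindromic androgen response element. E2F factors drive S-phase genes, and CHR elements mark genes of G2 and mitosis. An E2F match was present in 4 of 49 member windows (8.16%, in FANCD2, MSH6, XRCC2 and XRCC6), in 2.27% of 35116 windows of all genes and in 39.1% of 23 windows of the proliferation genes. CHR letters were found in 8.16% of member windows (ATM, BRIP1, PARP2 and USP1), 16.4% of all windows and 30.4% of proliferation windows. The androgen element was in 0 of 49 member windows and in 1 of all 35116. Such matches describe letters only and show no binding.

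The windows of EXO1 (chr1:241847954-241848253, plus strand), RAD54L (chr1:46247438-46247737, plus strand) and BLM (chr15:90717096-90717395, plus strand) are shown because these genes had the largest log2 fold changes with DHT among members called in the opposite direction when JQ-1 was added. They held none of the motifs. EXO1 and BLM passed the filter through 1 group in both comparisons, so their calls served only to choose windows. Those of XRCC2 (chr7:152676092-152676391, minus strand) and MSH6 (chr2:47782895-47783194, plus strand) are shown for their E2F matches, chosen after their values were seen, with the match in capitals. In XRCC2 it is TTTCCCGC read on the opposite strand, starting 22 bases after the start site, and in MSH6 TTTCCCGC starting 4 bases after it. Each sequence is given 5′ to 3′ along the gene's strand.
EXO1: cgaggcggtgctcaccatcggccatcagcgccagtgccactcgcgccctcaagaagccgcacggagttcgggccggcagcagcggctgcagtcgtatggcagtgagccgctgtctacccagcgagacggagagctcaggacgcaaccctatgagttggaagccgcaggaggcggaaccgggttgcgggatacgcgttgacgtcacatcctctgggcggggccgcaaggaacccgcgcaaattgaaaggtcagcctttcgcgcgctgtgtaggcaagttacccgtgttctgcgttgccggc
RAD54L: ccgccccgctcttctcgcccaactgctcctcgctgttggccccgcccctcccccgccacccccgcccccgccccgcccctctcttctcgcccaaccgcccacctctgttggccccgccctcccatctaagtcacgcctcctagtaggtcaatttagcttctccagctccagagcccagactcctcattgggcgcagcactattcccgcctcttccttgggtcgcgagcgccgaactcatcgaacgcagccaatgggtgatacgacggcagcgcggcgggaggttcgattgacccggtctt
BLM: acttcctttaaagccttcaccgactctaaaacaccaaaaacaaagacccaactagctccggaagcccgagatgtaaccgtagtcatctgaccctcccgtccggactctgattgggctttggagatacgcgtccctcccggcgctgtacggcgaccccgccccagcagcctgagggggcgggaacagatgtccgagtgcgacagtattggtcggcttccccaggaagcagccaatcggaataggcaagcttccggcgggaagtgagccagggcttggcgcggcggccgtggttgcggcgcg
XRCC2: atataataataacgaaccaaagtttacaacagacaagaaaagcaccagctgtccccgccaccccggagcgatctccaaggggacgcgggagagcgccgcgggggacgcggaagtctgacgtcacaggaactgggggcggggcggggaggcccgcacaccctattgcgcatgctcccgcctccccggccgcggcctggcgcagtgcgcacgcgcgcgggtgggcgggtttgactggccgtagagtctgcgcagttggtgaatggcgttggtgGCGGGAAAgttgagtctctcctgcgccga
MSH6: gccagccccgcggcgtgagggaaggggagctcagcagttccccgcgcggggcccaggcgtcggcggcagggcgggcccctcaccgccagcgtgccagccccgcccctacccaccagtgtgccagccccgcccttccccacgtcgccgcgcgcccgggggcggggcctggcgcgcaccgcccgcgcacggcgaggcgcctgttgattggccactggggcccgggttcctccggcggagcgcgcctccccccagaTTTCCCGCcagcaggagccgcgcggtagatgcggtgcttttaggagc

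On GRCh37, the build of the authors' alignment, BRCA1 lies at chr17:41196312-41322262 (minus strand), RAD54L at chr1:46712133-46744152 (plus), EXO1 at chr1:242011269-242058450 (plus), BLM at chr15:91260577-91359396 (plus), BARD1 at chr2:215590370-215674407 (minus), PMS2 at chr7:6010556-6048761 (minus), XRCC2 at chr7:152341861-152373278 (minus), CHEK1 at chr11:125495058-125546150 (plus) and MSH6 at chr2:47922669-48037202 (plus), by GENCODE release 44 mapped to that build. Counts are given per gene symbol, and FPKM are sums over the transcripts of each symbol. Exons of 20 of the 37 members overlap a gene on the other strand, among them RAD54L with LRRC41, MSH6 with FBXO11, XRCC3 with KLC1 and FANCA with ZNF276.

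Of 79 other repair genes outside the set, 30 fell and 8 rose with enzalutamide in V16D, 35 rose and 19 fell with DHT, and 47 fell and 16 rose when JQ-1 was added to DHT. FEN1, the flap endonuclease of replication and base excision repair, fell by 0.36 on the log2 scale in V16D, rose by 1.64 with DHT and fell by 1.96 with JQ-1 added. CLSPN, the adaptor through which ATR activates CHEK1, averaged 0.892 FPKM under vehicle and 3.25 FPKM with DHT. These CLSPN levels are given without a test, since the gene needed the DHT samples to pass the filter. The glycosylase NEIL1 fell by 1.21 with DHT. POLB, the polymerase of base excision repair, and FAM175A, a scaffold of the BRCA1-A complex, rose by 1.03 and 1.29 when JQ-1 was added to DHT. The shares of all genes called in these comparisons are those given above. The stripped serum counts of other repair genes include any that passed the filter through 1 group.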

How the data were processed

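RNA from V16D and MR49F cells was sequenced from strand-specific poly(A) libraries, and alignment to GRCh37 by the authors used TopHat 2.0.9. Deposited read counts are whole numbers for each gene symbol, made with HTSeq and not normalized, whose strand setting is not given in the sources used here. Cufflinks 2.1.1 gave the FPKM that the authors deposited for each RefSeq transcript, and these were added up per symbol.

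Conditions came from the sample labels, and only the groups compared entered each fit. Full serum counts went through the quasi-likelihood test of edgeR 4.0.16 (TMM, filterByExpr) in R 4.3.3. Stripped serum samples and the serum by enzalutamide term were tested with limma 3.58.1 on log2(FPKM + 0.1), keeping a gene that reached 1 FPKM in 3 samples or more. FPKM were chosen because the stripped serum counts rest on few reads and may be of the opposite strand, which was not tested. Benjamini-Hochberg adjustment ran over all genes tested, with a threshold of 0.05. Scripts were tested on simulated data. Intervals are standard errors over 3 replicates.

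The members, the gene lists and the rule for named genes were chosen with earlier results of these data known. Values in every sample are given for the 4 members with the largest non-overlapping change in each comparison of groups and for BRCA1, BRCA2, CHEK1, XRCC2 and PRKDC where they passed. Of the other repair genes, the 3 with the largest rise and fall were eligible, in 3 comparisons. Alternatives were DESeq2 1.42.0, edgeR on the stripped serum counts, other filters, pseudocounts and scaling, a fit of all groups, the replicate number as a block, and each sample left out. Same-numbered replicates did not deviate together in every pair of any comparison. Leaving out members with an opposite-strand overlap, or those that passed the filter through 1 group, was chosen after seeing the data. Gene positions are those of GENCODE 44 mapped to GRCh37, and promoters those of RefSeq on GRCh38.p14.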

Additional observations from a re-analysis of the deposited data

Results flagged for a closer look

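The response to enzalutamide differed between the cell lines for 3 of 37 members by the interaction term in edgeR. Of these 1 was higher and 2 lower in MR49F, against 4.19% and 2.76% of all 14471 genes tested. The term (response of MR49F minus that of V16D, log2) was -0.29 for BARD1, -0.31 for PMS2 and 0.28 for NBN. The NBN and PMS2 calls were lost without some single samples, and the BARD1 call without V16D vehicle replicate 3 (edgeR adjusted p = 0.055).

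The response of MR49F cells to enzalutamide differed between the sera for 23 of 37 members by the interaction term in limma. Of these 21 were higher and 2 lower in stripped serum, against 15.0% and 18.8% of all 12981 genes tested. The term was the response in stripped minus that in full serum, on the log2 FPKM scale. Among the recombination genes it was 1.26 for BRCA1, 1.15 for BRCA2, 1.00 for BRIP1, 0.40 for RAD51C, 0.71 for RAD51AP1, 1.23 for RAD54L, 1.22 for RAD54B, 0.83 for XRCC2, 0.38 for XRCC3, 0.46 for RBBP8, 1.57 for EXO1 and 1.26 for BLM. Among the sensor and checkpoint genes it was 0.30 for MRE11A, 0.84 for CHEK1 and 0.66 for CHEK2. Among the Fanconi genes it was 0.57 for FANCA, 0.52 for FANCD2 and 0.69 for FANCI. The mismatch repair genes went apart, with 0.45 for MSH6 and -0.57 for PMS2, and the polymerases gave 0.41 for PARP1 and 0.64 for PARP2. BARD1, at -0.77, was the only recombination gene with a term below 0 among those called. Serum and any difference between experiments cannot be told apart. In the same fit 19 of 22 proliferation genes had a higher term, and their part was not tested. The RAD51AP1 and MRE11A terms were lost without some single samples.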

How the results depend on the processing

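The number of members called under other settings is given for each comparison in the order of the report. In V16D, 21 became 13 with all groups in 1 fit and 11 by limma on log2(FPKM + 0.1) or log2(FPKM + 1), and 17 to 20 with 1 sample left out. For MR49F enzalutamide, 5 became 10 with all groups and 1 by either limma fit (1 to 10 with 1 sample left out), and for the cell line term 3 became 1 by either limma fit (1 to 8). The lines gave 28 to 32 with 1 sample left out. In stripped serum the count tests gave, in the order DESeq2, edgeR, edgeR with DESeq2 size factors and edgeR without a filter, 1, 2, 2 and 4 for enzalutamide (26 by limma, 21 to 26 with 1 sample left out), 7, 20, 19 and 19 for DHT (31, 26 to 31), 4 each for DHT against enzalutamide (13, 9 to 13, and 20 after centring), 6, 12, 12 and 14 for JQ-1 alone (24, 20 to 23), 2, 3, 3 and 4 for DHT under JQ-1 (11, 6 to 9), 0 each for enzalutamide under JQ-1 (3, 2 to 3, and 6 with all groups), 3, 6, 6 and 5 for the DHT by JQ-1 term (30, 24 to 30) and 0, 0, 0 and 1 for the enzalutamide by JQ-1 term (22, 16 to 19). For JQ-1 added to enzalutamide (28, 25 to 28), DESeq2 gave 10 and edgeR 15 with either scaling, and for JQ-1 added to DHT (31, 27 to 31) DESeq2 gave 19. Over the stripped serum comparisons the share of all genes called was 15.84% to 78.61% by limma, 0.305% to 25.62% by DESeq2 and 0.8946% to 54.65% by edgeR, and over those in full serum it was 6.952% to 63.72%, or 2.921% to 68.6% with 1 sample left out. The serum by enzalutamide count stayed within 1.5 times of 23 (21 to 26 with 1 sample left out).

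Members whose direction turned did so in stripped serum on the counts, by DESeq2 and edgeR, and the cause was not tested. For enzalutamide the log2 values were XRCC3 -0.37, -0.38 and -0.39, CHEK1 -0.11, -0.12 and -0.13 and then FANCA -0.073, -0.079, -0.086 and -0.074. For DHT the log2 values were XRCC3 -0.27, -0.29 and -0.26, CHEK1 -0.36 and -0.39 and then FANCA -0.34 and -0.36. For JQ-1 alone the log2 values were RAD54B -0.23 and -0.25, MRE11A 0.21, 0.18 and 0.20, ATM 0.25, 0.23 and 0.26 and then LIG4 0.016 and 0.018. For JQ-1 added to enzalutamide the log2 values were XRCC3 0.52, CHEK1 0.15 and 0.14, FANCI 0.25 and 0.24 and then MSH6 0.20, 0.18 and 0.19. For JQ-1 added to DHT the log2 values were XRCC3 0.41 and 0.40 and then FANCI 0.43 and 0.42. For the DHT by JQ-1 term the log2 values were XRCC3 0.19 and 0.18, FANCA 0.18 and 0.17 and then FANCI 0.11 and 0.10. For the enzalutamide by JQ-1 term the log2 values were RAD54L 0.39 and 0.40, XRCC3 0.30 and 0.31, CHEK1 0.31, 0.32 and 0.30 and then FANCA 0.22, 0.23 and 0.21. The counts there rest on 982130 to 1813262 reads per sample, which limits low members, and of the members that turned all but RAD54B and LIG4 overlap a gene on the other strand, as do 20 of all 37.

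The replicate number as a block gave 21 calls in V16D, 4 in MR49F, 30 between the lines, 3 for the cell line term, 26 for enzalutamide in stripped serum, 31 for DHT, 11 for DHT against enzalutamide, 22 for JQ-1 alone, 28 and 31 for JQ-1 added to enzalutamide and to DHT, 10 and 2 for DHT and enzalutamide under JQ-1, 31 and 20 for their terms and 23 for the serum term. The numbers were not used to pair the samples in the main fits, since no comparison had every correlation of same-numbered deviations over 0.1. With 3 correlations a comparison, from -0.2932 to 0.3024, this does not show that the samples were unpaired. Leaving out members with an opposite-strand overlap or those that passed the filter through 1 group, both chosen after seeing the data, kept the direction of every count's majority.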
